A study of Mus musculus with 5 samples.

Results

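The 43 genes described here encode the machinery with which a nerve terminal stores, releases and recycles transmitter. They were given as a list of symbols that was chosen with earlier results of these data known. Each matched 1 Ensembl gene of the GRCm38 annotation (GENCODE M21) among the 55471 genes of the count table. All 43 passed the filter on low counts that left 16052 genes for testing, with 139 to 53352 counts per gene and library. They lie on 18 chromosomes, and their merged exons span 852 to 22746 bases. The tissue was spinal cord of male C57BL/6J mice aged 3 months and labelled as resting, from 3 WT mice and 2 Lhx1os -/- mice (KO), and polyadenylated RNA was sequenced. Lhx1os encodes a long non-coding RNA, and by its title the series examines motor neurons and movement in mice that lack it. The KO allele was made in C57BL/6J zygotes with Cas9 mRNA and a single guide to the second exon, where a synthetic polyadenylation signal followed by MAZ elements was inserted to stop transcription, so the gene body remains in place. The sources used here give neither the number of founders behind the KO animals nor the segments of cord that were taken.

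Transmitter is held in synaptic vesicles that are loaded, gathered behind the active zone by synapsins and Rab3 GTPases, docked and primed by Rims and Unc13 proteins, and fused by a complex of SNARE proteins. Synaptotagmins sense the calcium that enters with the action potential and, with complexins, make fusion fast and synchronous. The spinal cord and hindbrain are known for using other paralogs of this machinery than the forebrain, with Syt2, Vamp1 and Cplx1 taking much of the work that Syt1, Vamp2 and Cplx2 do in the cortex. Vamp1 and Syt2 also serve the terminals of motor neurons on muscle, which lie outside the cord while their mRNA is mostly in the cell bodies within it.

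Libraries held 15973063 to 19437533 counts, and the 43 genes took 1.61% to 1.70% of them in WT and 1.74% to 1.75% in KO. The targeted gene Lhx1os had 51 to 66 counts in WT and 11 to 13 in KO. The glycine transporter gene Slc6a5 stood at 418 to 534 CPM (counts scaled to library size, the usual CPM unit), whereas the cerebellar granule cell gene Gabra6 had 0 counts in every library. The motor neuron gene Isl1, at 1.56 to 2.58 CPM, overlapped in level with En2 of the cerebellar list, at 1.94 to 2.75 CPM. Libraries differed in what else they held. The 5 sensory ganglion genes summed to 31.8 CPM in WT replicate 2 and to 1.78 to 2.79 CPM in the other libraries, and the 6 lumbosacral Hox genes to 27.7 CPM in WT replicate 3 and 59.7 CPM in KO replicate 2 against 6.56 to 9.09 CPM in the rest. In such bulk tissue, fewer cells of a type and less RNA per cell cannot be told apart.

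Levels are compared between genes as CPM per kilobase of merged exon, a scale on which WT cord placed 10 of the 43 genes at 100 or more, 23 between 10 and 100 and 10 below 10. The most abundant was Cplx1, whose protein clamps and then speeds vesicle fusion, at 578, 521 and 502 in WT replicates 1, 2 and 3 and at 596 and 580.3 in KO replicates 1 and 2, the order kept for all values below. It was followed by Snap25, the SNARE protein of the plasma membrane, at 432, 401 and 401 in WT and 425 and 418 in KO. The scarcest was Unc13b, a priming factor, at 1.03, 1.32 and 1.29 in WT and 1.06 and 1.09 in KO. Of the 42 neighbouring pairs in the order of WT levels, 25 had WT ranges that overlapped, so much of the fine order is not resolved. Cplx1 stood apart from Snap25, and Snap25 from Syt11 below it, but the order of Cplx1 and Snap25 turned when each gene's longest transcript was used as its length (534 against 572).

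**Figure D1:**
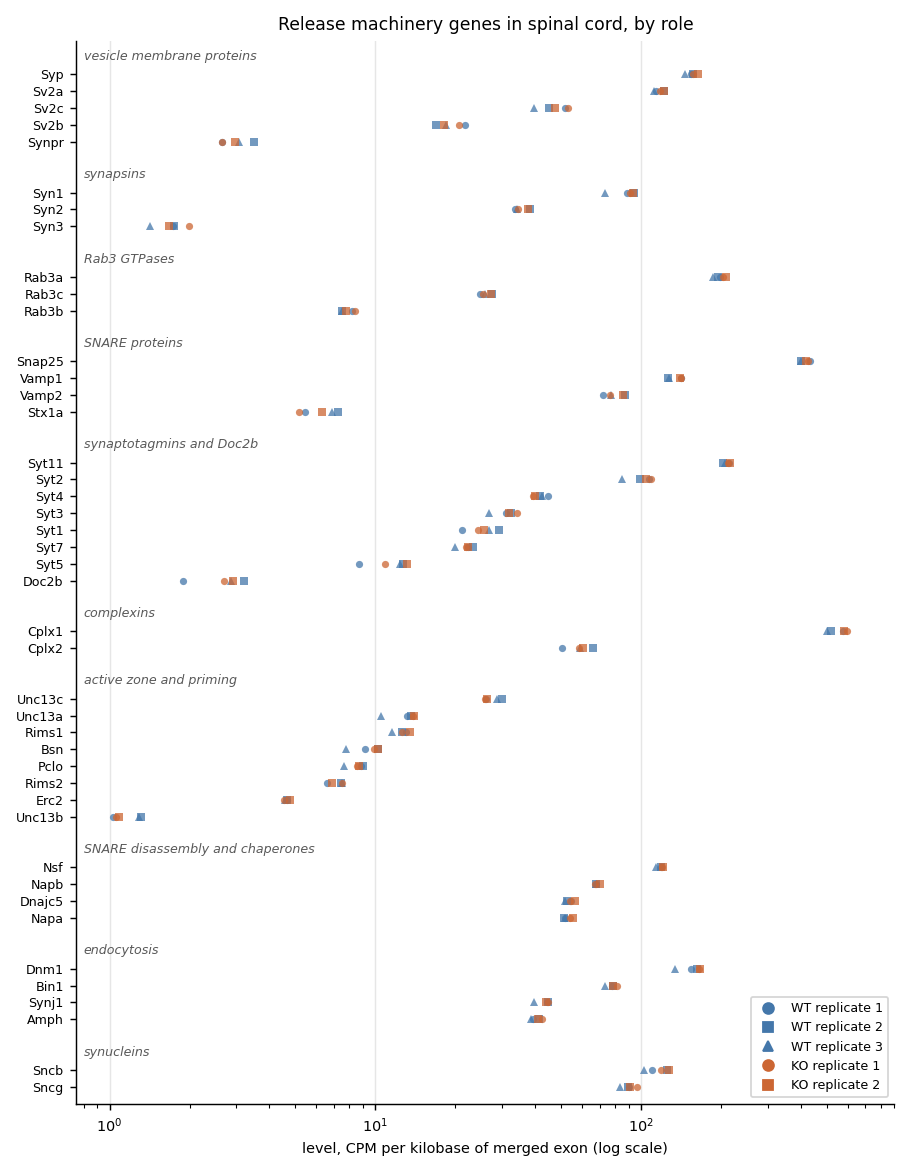
Level of each of the 43 genes in each library, in CPM per kilobase of merged exon on a log axis, with genes grouped by role and ordered by WT mean within a role; each point is a library, blue for WT and orange for KO. Paralogs differ by up to orders of magnitude while the 5 libraries of a gene lie close together, Cplx1 at 502 to 596 being the highest and Unc13b at 1.03 to 1.32 the lowest.

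Among vesicle membrane proteins, Syp, the synaptophysin gene, stood at 153 ± 5.05 CPM per kilobase in WT (SD, n = 3), while its relative Synpr, known from a subset of terminals, stood at 3.08 ± 0.429. The glycoprotein genes of the Sv2 family stood in the order Sv2a (116 ± 5.27), Sv2c (45.6 ± 6.11) and Sv2b (19.1 ± 2.48), with no overlap of WT ranges between them. Sv2c, the member known for a restricted distribution in brainstem and basal ganglia, thus outranked Sv2b, which is abundant in forebrain. Sv2c took 25.2% ± 2.21 of the summed level of the family in WT and 26.6% ± 1.72 in KO (SD, n = 2).

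The synapsins, which tether vesicles to each other, were led by Syn1 at 85.3 ± 10.9 CPM per kilobase in WT, ahead of Syn2 at 35.3 ± 2.54 and Syn3 at 1.64 ± 0.186. WT replicate 3 held the least Syn1, 73.1 against 88.4 and 94.4 in the other WT libraries and 90.9 and 93.3 in KO. Syn3 shares 14.1% of its merged exon with Timp3 on the opposite strand, and since the strand setting of the counting is not stated its level is uncertain. Of the 3 Rab3 genes measured as members, whose GTPases mark vesicles for docking, Rab3a made up 85.1% ± 0.514 of the summed level in WT and 85.6% ± 0.0434 in KO. Rab3c followed at 11.5% in WT and Rab3b at 3.41%.

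No active zone gene of the 8 stood above Unc13c on this scale. Unc13c, a Munc13 gene best known from the cerebellum, had the highest level of its family at 28.3 ± 1.87 CPM per kilobase in WT, above Unc13a at 12.4 ± 1.66, the form of most forebrain synapses, and Unc13b at 1.21 ± 0.158. The order of Unc13c over Unc13a was the same with the longest transcript as length (28.3 against 15.3). The 5 cerebellar marker genes summed to 2.70 to 4.29 CPM, with Gabra6 at 0 counts in every library. The scaffold genes Bsn and Pclo stood at 9.05 ± 1.26 and 8.48 ± 0.746, with overlapping ranges, and Rims1, which links calcium channels to vesicles, at 12.4 ± 0.759 against 7.17 ± 0.514 for Rims2. With the longest transcript as length Rims2 reached 15.5 and Rims1 14.2, so the order of these genes rests on the length used. Erc2 was the steadiest of the group at 4.64, 4.64 and 4.56 in WT and 4.54 and 4.77 in KO.

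Genes that take the SNARE complex apart or guard its folding were high and even. Nsf, the ATPase of that step, stood at 118 ± 2.76 CPM per kilobase in WT, its adaptor Napb, known from nervous tissue, at 67.9 ± 0.218 and the ubiquitous adaptor Napa at 51.6 ± 0.282. Dnajc5, which encodes cysteine string protein alpha, a vesicle chaperone, stood at 53.0 ± 1.40. Among endocytosis genes Dnm1, the neuronal dynamin that cuts vesicles from the membrane, led at 151 ± 14.4, and Bin1, which is also expressed in glia, stood at 76.5 ± 3.02 against 39.7 ± 1.38 for its neuronal relative Amph. The synuclein genes Sncb and Sncg stood at 113 ± 11.7 and 87.6 ± 3.36. Sncg, which is also known from sensory ganglia, was at 89.9, 89.1 and 83.7 in WT, and the part of the ganglion markers of WT replicate 2 in that value was not tested.

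The paralog pairs in which the cord is known to differ from the forebrain were then compared within each library, where no scaling between libraries enters. Vamp1, the vesicle SNARE of spinal and motor terminals, made up 66.4%, 59.3% and 62.3% of the summed level per kilobase of Vamp1 and Vamp2 in WT, against 65.0% and 62.1% in KO. Syt2, the fast calcium sensor of hindbrain and cord, made up 83.5%, 77.3% and 76.0% of Syt1 and Syt2 in WT and 81.7% and 80.3% in KO. Cplx1 made up 92.0%, 88.8% and 89.5% of Cplx1 and Cplx2 in WT and 91.1% and 90.6% in KO. The paralog known from hindbrain and cord was thus the larger share of each pair in each of the 5 libraries, and this was also the case with the longest transcript as length, where the WT means were 63.4% for Vamp1, 70.7% for Syt2 and 90.1% for Cplx1.

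The genotypes overlapped in all 3 shares. The KO mean differed from the WT mean by 0.89 percentage points for Vamp1, 2.08 for Syt2 and 0.72 for Cplx1, against WT standard deviations of 3.57, 3.99 and 1.68 points. Two-sided exact permutation tests over the libraries gave p = 0.9, 0.5 and 0.6 (adjusted over the 3 tests, 0.9 each), where the smallest p that 3 against 2 libraries allow is 0.1. The Vamp1 difference turned to −0.80 points without WT replicate 2 and to −0.55 without KO replicate 1. WT replicate 1 had the highest share of the hindbrain and cord paralog in each pair, above both KO libraries.

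**Figure D2:**
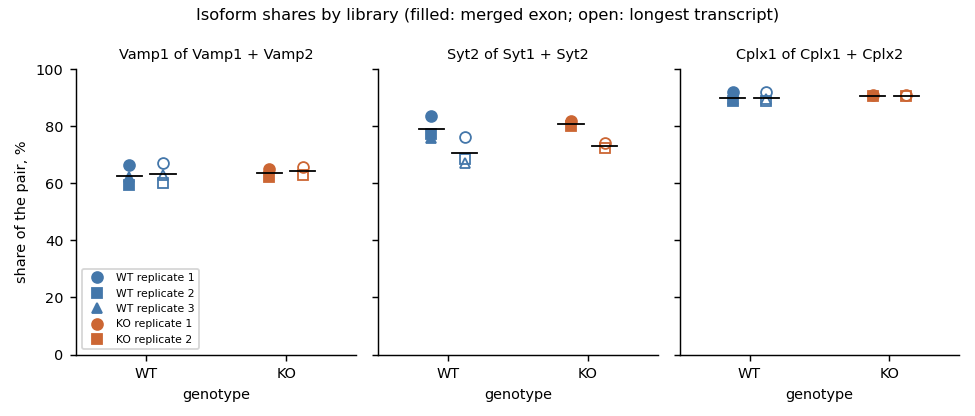
Share in percent of Vamp1, Syt2 and Cplx1 in the summed level of each pair, by genotype; each point is a library, bars are means, and filled and open symbols use merged exons and the longest transcript as gene length. All shares lie above 50%, from 59.3% for Vamp1 in WT replicate 2 to 92.0% for Cplx1 in WT replicate 1 with merged exons, and WT and KO points overlap.

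The start regions of 4 of these genes are shown because the paralogs of a pair differ in level in every library. Vamp2 is named only, and the table's window for Cplx2 is not shown since it lies more than 1000 bases outside the gene model that was counted, the 1 window of 42 to do so. They are the 250 bases before the annotated start in RefSeq on GRCm38.p6, the outermost start where the table gives 2, printed 5′ to 3′ in the direction of the gene, and capitals mark GC boxes (GGGCGG, or CCGCCC on the other strand) and CCAAT boxes (CCAAT, or ATTGG on the other strand). Vamp1 lies at chr6:125215331-125215580 on the plus strand, Syt2 at chr1:134646362-134646611 on the plus strand, Cplx1 at chr5:108550028-108550277 and Syt1 at chr10:109010976-109011225, both on the minus strand.
Vamp1: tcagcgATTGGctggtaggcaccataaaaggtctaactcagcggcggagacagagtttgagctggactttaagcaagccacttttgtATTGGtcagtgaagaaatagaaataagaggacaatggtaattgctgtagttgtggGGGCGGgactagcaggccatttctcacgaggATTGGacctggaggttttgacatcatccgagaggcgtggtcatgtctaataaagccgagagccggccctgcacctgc
Syt2: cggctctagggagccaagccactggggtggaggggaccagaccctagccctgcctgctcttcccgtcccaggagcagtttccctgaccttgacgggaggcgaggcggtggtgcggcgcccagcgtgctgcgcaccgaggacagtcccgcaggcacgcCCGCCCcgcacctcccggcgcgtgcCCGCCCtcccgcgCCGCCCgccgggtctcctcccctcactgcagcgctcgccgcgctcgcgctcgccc
Syt1: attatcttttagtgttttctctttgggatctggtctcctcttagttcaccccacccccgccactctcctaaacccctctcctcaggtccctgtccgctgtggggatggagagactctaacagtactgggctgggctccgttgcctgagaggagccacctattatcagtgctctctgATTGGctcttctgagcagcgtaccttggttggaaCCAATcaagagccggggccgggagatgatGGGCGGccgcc
Cplx1: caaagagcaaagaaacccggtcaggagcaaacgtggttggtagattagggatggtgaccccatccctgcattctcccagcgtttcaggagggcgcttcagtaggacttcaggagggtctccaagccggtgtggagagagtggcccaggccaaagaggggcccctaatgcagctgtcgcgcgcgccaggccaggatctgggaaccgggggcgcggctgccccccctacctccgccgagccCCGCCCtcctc
Syt2 holds 3 GC box matches and no CCAAT match in a window of 76.0% G and C, and Syt1 holds 1 GC box and 2 CCAAT matches in a window of 56.4% G and C. Vamp1 holds 1 GC box and 3 CCAAT matches and Cplx1 1 GC box alone in a window of 64.8% G and C. The promoter table matched 33 of the 43 genes with 42 start windows, of which 57.1% held a GC box and 28.6% a CCAAT box, against 32.7% and 33.8% of all 32851 windows of the same length. The median content of G and C was 61% in the member windows and 52.4% in all windows. The part of base content in the GC box shares was not tested. The cyclic AMP response element TGACGTCA was found for Syn1 among the 33 genes, and in 1.55% of all windows. These letters describe the windows and were not tested for any bearing on the levels.

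Of the 43 genes, 0 passed an adjusted p of 0.05 between KO and WT in edgeR's quasi-likelihood test over 16052 genes, of which 3 (0.0187%) passed. The targeted gene Lhx1os was not among these 3, with a log2 fold change of −2.13 (SE 0.28) and an adjusted p of 0.0589 in this test. None of the 43 had an unadjusted p under 0.05 either, against 7.57% of all genes (3.49% higher and 4.07% lower in KO). The lowest unadjusted p of a member was 0.0698. DESeq2 called 0 of the 43 (0.265% of all genes), limma-voom 0 (0.00623%) and edgeR with robust dispersion 0 (0.0748%). The log2 fold change was above 0 for 37 of the 43 genes and below 0 for 6, with a median of 0.06 and a range from −0.19 to 0.16, whereas 51.3% of all genes were above 0 and their median was 0.00. The 95% interval of each of the 43 held 0. Each also lay within a 1.5-fold change in either direction.

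**Figure D3:**
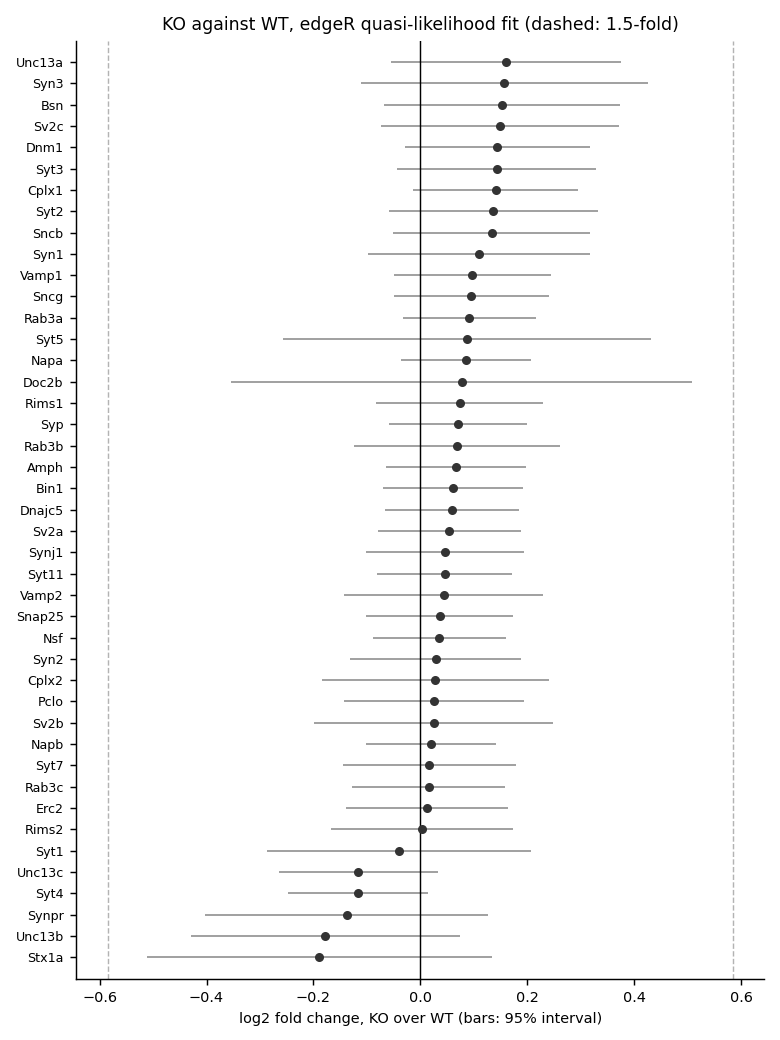
Log2 fold change of KO over WT for the 43 genes with 95% intervals from the edgeR fit, ordered by size, with dashed lines at 1.5-fold. Points run from −0.19 for Stx1a to 0.16 for Unc13a, 37 lie above 0, and every interval holds 0 and stays inside the dashed lines.

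By role, none of the groups held a gene that passed. The log2 fold change was above 0 for all 3 synapsin genes (median 0.11), all 3 Rab3 genes (0.07), both complexin genes (0.08), all 4 endocytosis genes (0.06), all 4 genes of SNARE disassembly and chaperones (0.05) and both synuclein genes (0.11). It was above 0 for 4 of 5 vesicle membrane genes (0.05), 3 of 4 SNARE genes (0.04), 6 of 8 synaptotagmin and Doc2 genes (0.06) and 6 of 8 active zone and priming genes (0.02). The 6 genes below 0 were Synpr, Stx1a, Syt1, Syt4, Unc13b and Unc13c.

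The smallest p-values belonged to genes of several roles. Cplx1 stood at 1265, 1140.5 and 1099 CPM in WT and 1305.5 and 1270.3 CPM in KO, which gave a log2 difference of 0.14 (SE 0.07; edgeR adjusted p = 0.692). Both KO libraries lay above all WT libraries, WT replicate 1 being only just below. Syt4, a synaptotagmin of dense core and other vesicles that does not bind calcium in the usual way, stood at 173, 162 and 165 CPM in WT and 152 and 155 CPM in KO (−0.12, SE 0.06; adjusted p = 0.699). It was the 1 gene of the 43 with both KO libraries below all WT, where 1921 of all 16052 genes (12%) were so placed; it shares 14.5% of its merged exon with Gm26658 on the opposite strand. Dnm1 stood at 813, 853 and 707 CPM in WT and 871 and 877 CPM in KO (0.14, SE 0.08; adjusted p = 0.714), with both KO libraries above WT.

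Unc13c was at 231, 263 and 252 CPM in WT and 227 and 232 CPM in KO (−0.12, SE 0.07; adjusted p = 0.724), and the groups overlapped at WT replicate 1. Syt3, a calcium sensor of postsynaptic and presynaptic membranes, was at 96.5, 101 and 83.3 CPM in WT and 107 and 99.8 CPM in KO (0.14, SE 0.08; adjusted p = 0.730). Unc13a was at 166, 172 and 133 CPM in WT and 175 and 176 CPM in KO (0.16, SE 0.10; adjusted p = 0.730). Its KO libraries lay above all WT libraries, and WT replicate 3 was the low one.

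The most abundant members of the other roles had log2 differences between 0.04 and 0.13. Snap25 differed by 0.04 (SE 0.06; 95% interval −0.10 to 0.17). Syt11, a synaptotagmin that does not bind calcium and is expressed beyond neurons, was at 1119.7, 1059.8 and 1077 CPM in WT and 1111 and 1129 CPM in KO (0.05, SE 0.06). Nsf was at 996, 993 and 955 CPM in WT and 1002 and 1010.1 CPM in KO (0.04, SE 0.06), with a narrow gap between the groups. Syp was at 806, 817 and 767 CPM in WT and 818 and 854 CPM in KO (0.07, SE 0.06), although 16.8% of its merged exon is shared with the antisense gene Gm14703. Rab3a was at 440.0, 433 and 417 CPM in WT and 452 and 465 CPM in KO (0.09, SE 0.06), with both KO libraries above WT. Sncb was at 236, 269 and 220.1 CPM in WT and 256 and 275 CPM in KO (0.13, SE 0.08). For Sncb and for Syn1 (0.11, SE 0.09) the groups overlapped.

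In the paralog pairs the log2 fold changes were 0.14 (SE 0.09) for Syt2 and −0.04 (SE 0.11) for Syt1, 0.10 (SE 0.07) for Vamp1 and 0.04 (SE 0.08) for Vamp2, and 0.14 for Cplx1 against 0.03 (SE 0.10) for Cplx2. None of these 6 passed. Syt2 was at 819.6, 759 and 650.4 CPM in WT and 834 and 799.6 CPM in KO, and WT replicate 3 was the low one. Vamp2 was at 274, 331 and 295 CPM in WT and 292 and 326 CPM in KO, and Cplx2 at 248, 324 and 289.8 CPM in WT and 289 and 297 CPM in KO, both lowest in WT replicate 1. Vamp1 was at 1441, 1284 and 1298 CPM in WT and 1444 and 1425 CPM in KO, so that WT replicate 1 lay within the KO range. Syt1 was at 177, 243 and 224 CPM in WT and 204 and 215 CPM in KO, with the KO libraries inside the WT range. The sign turned for Syt1 without WT replicate 2 (0.06), for Vamp2 without WT replicate 1 (−0.02) or KO replicate 2 (−0.04), and for Cplx2 without WT replicate 1 (−0.07).

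The groups did not overlap for 9 of the 43 genes, against 24.9% of all genes tested. Both KO libraries were above all WT libraries for 8 of them, Syp, Rab3a, Cplx1, Unc13a, Nsf, Napa, Dnm1 and Sncg, where 12.9% of all genes tested were so placed. Napa was at 196, 194 and 196 CPM in WT and 204 and 210.3 CPM in KO (0.09, SE 0.05; adjusted p = 0.741), and its share of the summed level per kilobase of Napa and Napb was 43.2% ± 0.196 in WT and 44.3% ± 0.245 in KO. The groups also did not overlap in the share of Unc13a among the Unc13 genes, 29.6% ± 3.31 in WT and 33.8% ± 0.205 in KO, or in that of Bsn in the pair with Pclo, 51.5% ± 1.51 and 53.8% ± 0.215. These were 3 of 13 families compared, and the other 10 overlapped in every share. Two-sided exact permutation tests gave p = 0.1 for Napa, 0.2 for Unc13a and 0.2 for Bsn. The smallest p that 3 against 2 libraries allow is 0.1, so no share could pass 0.05. Adjusted over the 30 shares, the lowest p was 0.875, where both shares of a pair are complementary and give the same test. Summed over the 43 genes, the level was 17133, 16900 and 15918 CPM in WT and 17423 and 17469 CPM in KO. Sums of 16 general neuronal genes outside the release machinery were 12994, 11890 and 11198 CPM in WT and 13424 and 12788 CPM in KO. In the sums of the 16 genes the groups overlapped, as WT replicate 1 lay above KO replicate 2. In the sums over the 43 genes both KO libraries lay above all WT libraries, with WT replicate 1 the nearest. Of the 16 genes, 14 had a log2 fold change above 0 (median 0.10) and 0 passed. Log2 fold changes were below 0 for 5 of 5 astrocyte genes (median −0.12), 5 of 5 microglia genes (−0.07) and 6 of 6 meningeal genes (−0.44). They were also below 0 for 4 of 4 Schwann cell genes (−0.24) and 3 of 4 oligodendrocyte precursor genes (−0.34). Oligodendrocyte genes were below 0 for 3 of 6, endothelial genes for 1 of 4 and skeletal muscle genes for 0 of 6 (median 1.02). Of the 8 spinal neuron genes, 5 were above 0 (median 0.06). An unadjusted edgeR p under 0.05 was held by 3 oligodendrocyte precursor, 2 Schwann cell and 2 general neuronal genes. It was also held by 1 gene each of the microglia, meningeal, oligodendrocyte and skeletal muscle lists, against 7.57% of all genes. None of these genes passed. The part of cell content in the members' values was not tested.

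For 39 of the 43 genes the KO and WT means lay closer together than the lowest and highest WT library, as for 80.1% of all genes. The exceptions were Rab3a, Syt4, Napa and Napb. WT replicate 3 was the lowest of the 5 libraries for 23 of the 43 genes, against 22.0% of all genes, and KO replicate 2 was the lowest for 0. Without WT replicate 3 the median log2 fold change of the members was 0.03 and 33 were above 0, and without KO replicate 2 it was 0.04 and 31 were above 0. Left out in turn, no library brought a member past the threshold, while 9 members had an unadjusted p under 0.05 without WT replicate 1, a fit in which 9.28% of all genes had one, and 6 without WT replicate 2, where 10.2% of all genes did. The fit without WT replicate 1 called 58 genes in all, against 3 with every library. Without WT replicate 3 the log2 fold change shrank by over 1.5 times for 23 members and turned sign for 4. It was then 0.05 for Unc13a, 0.05 for Syt2, 0.07 for Dnm1, 0.06 for Syt3, 0.07 for Sncb and 0.01 for Syn1.

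Of the 10 members with the widest WT range, Doc2b, Syt5, Syt1, Stx1a, Synpr and Cplx2 were lowest in WT replicate 1 among the WT libraries. Bsn, Sv2c, Unc13a and Syn1 were lowest in WT replicate 3. Doc2b, a soluble calcium sensor of asynchronous and spontaneous release, was at 8.26 CPM in WT replicate 1, 14.0 in WT replicate 2 and 12.5 in WT replicate 3, against 11.8 and 12.7 in KO. Syt5 was at 20.7, 30.4 and 29.5 CPM in WT and 25.9 and 31.3 in KO, and Stx1a, the plasma membrane syntaxin, at 14.5, 19.3 and 18.3 in WT and 13.7 and 16.8 in KO. Vamp2 and Unc13b were likewise lowest in WT replicate 1 among the WT libraries, whereas Sv2b, Sv2c, Syt2, Vamp1 and Cplx1 were highest there. Of the 8 spinal neuron marker genes, Slc5a7, Chat, Mnx1 and Slc6a5 were highest in WT replicate 1 among the WT libraries, Lmx1b, Lbx1 and Isl1 were lowest there, and Slc17a6 lay between the others. The choline transporter gene Slc5a7 was at 144, 81.5 and 95.9 CPM in WT and 147 and 101 in KO, and Lmx1b of dorsal horn neurons at 13.4, 21.6 and 21.3 in WT and 16.8 and 18.5 in KO. Isl1 (2.44, 2.45 and 2.58 in WT) and Slc17a6 (221, 224 and 213 in WT) differed little between these libraries. The part of these cell types in the members' values was not tested.

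**Figure D4:**
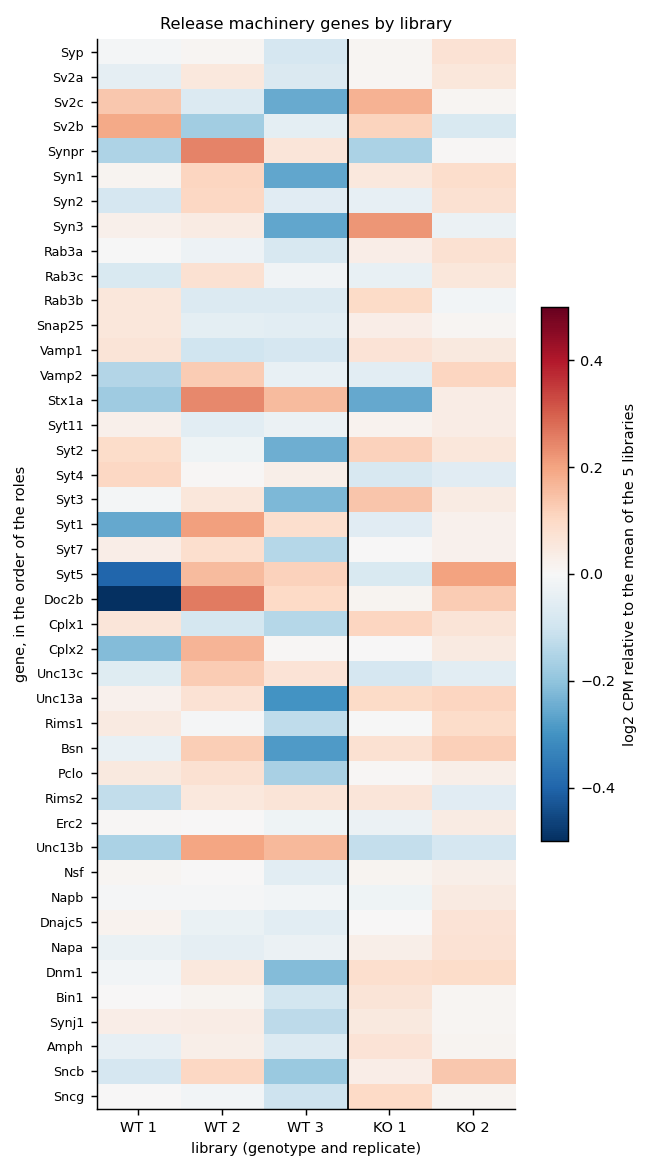
Log2 CPM of the 43 genes in each library relative to the gene's mean over the 5 libraries, from −0.5 (blue) to 0.5 (red), with genes in the order of the roles and a line between WT and KO. WT replicate 1 is lowest for Doc2b and Syt5, WT replicate 3 is lowest for 23 of the 43 genes, and no block of genes separates the 3 WT from the 2 KO columns.

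A further 46 genes of release and vesicle recycling outside the 43 were examined in the same fit, of which 44 passed the filter and 0 passed the test. The log2 fold change was above 0 for 27 and below 0 for 17, with a median of 0.02. Of the 44, 4 had an unadjusted edgeR p under 0.05, against 7.57% of all genes tested. Among the smallest p-values were those of Synj2, a phosphoinositide phosphatase related to Synj1 (0.17, SE 0.07; adjusted p = 0.626), and Sh3gl1, an endophilin gene expressed in many tissues (−0.23, SE 0.09; adjusted p = 0.644). Synj2 was at 88.5, 81.6 and 80.5 CPM in WT and 95.1 and 92.5 CPM in KO. Both KO libraries lay above WT, as for 12.9% of all genes tested.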

How the data were processed

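Messenger RNA of 3 WT and 2 KO spinal cords was sequenced. The deposited values are raw counts per gene for each library, which the authors made with cutadapt, Trimmomatic, STAR 2.5.2b and HTSeq on GRCm38, per the submitters' processing notes. The sources used here give neither the annotation release nor the strand setting. Groups came from the sample titles, and no label says that libraries came from separate litters, so p-values measure the spread between these samples. Libraries of a group differed beyond sampling noise (chi-square of counts over degrees of freedom, 4.23 to 7.98).

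Genes were filtered with filterByExpr (minimum count 10, total 15), scaled by TMM and compared with edgeR 4.0.16 in R 4.3.3 (quasi-likelihood F test, Benjamini-Hochberg adjustment over all genes, threshold 0.05, no covariates). The common biological coefficient of variation was 7.48%. Standard errors are the log2 fold change divided by the root of F. Levels are CPM divided by the merged exon length in GENCODE M21. The test was checked on simulated counts that gave every gene this common spread. The planted changes were larger than the members' differences, so the check does not show how the test handles differences of that size. The member list and the other gene lists were chosen with earlier results of these data known. Values are given in full for the 3 paralog pairs, the 6 members of smallest p and the most abundant member of each role, and other members are named with fewer values. Of the other release genes the 3 of smallest p were to be named, and some results are not reported here. DESeq2 1.42.0, limma 3.58.1 (voom), other scalings, filters and dispersions, a replicate block and each library left out were tried. The numbers 1 and 2 shared by the genotypes are not said to mark a shared litter or day and were not treated as pairs.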

Additional observations from a re-analysis of the deposited data

How the results depend on the processing

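Of the 43 release machinery genes, 0 passed under each of the 13 alternatives run, as did 0 of the 44 other release genes. The median log2 fold change of the members lay between 0.03 and 0.08 with each library left out. The count of all genes called, 3, became 6 with DESeq2 size factors, 96 without a filter, 40 with DESeq2, 1 with limma-voom, 12 with robust dispersion, and 0 to 58 with a library left out. With the replicate block it was 25, of which 0 were members, and the members' median was 0.04. Replicate 3 is in WT alone, so this fit takes its difference from replicates 1 and 2, as does the one without WT replicate 3. Same-numbered libraries had correlations of 0.058 and 0.002 over genes after centring on the group mean. With 2 KO libraries this centring forces the opposite values, −0.058 and −0.002, on the crossed pairs. The check therefore cannot show whether the libraries were paired. No paired reading is drawn. The sign held for 29 of the 43 members under all alternatives, 24 of them higher and 5 lower. The fits with a library left out gave the same 29 on their own. All alternatives draw on the same 5 libraries, and the share over all genes is not given here. The log2 fold change of Syt1 turned to 0.0069 with the replicate block, and with a library left out it ranged from −0.162 to 0.0594. That of Vamp2 ranged from −0.0403 without KO replicate 2 to 0.1205, and was −0.0184 without WT replicate 1. That of Cplx2 ranged from −0.0673 without WT replicate 1 to 0.1245. The Vamp1 share difference ranged from −0.80 to 2.76 percentage points with a library left out, the Syt2 difference from 0.61 to 4.35 and the Cplx1 difference from 0.06 to 1.66. The median WT level of the members, 42.8 CPM per kilobase, was 48.9 with the longest transcript. The cause of these shifts was not tested. The median standard error of the members was 0.07 on the log2 scale, and 3 against 2 libraries limit what can be resolved.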
